A study of Homo sapiens with 12 samples.

Results

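YAP5SA induction in JUN-overexpressing cells was examined in 6 of the 12 RNA-seq libraries of a study of MCF10A, a human mammary epithelial cell line that does not form tumours. The 6 libraries were chosen by their sample labels: 3 JUN EtOH libraries and 3 JUN Dox libraries, and all genes with enough counts to be tested are described. All cells of the study, controls included, carried a lentiviral pInducer-21 construct from which Strep-tagged YAP5SA is made when doxycycline (Dox) is given. The cells examined here had in addition been infected with a JUN expression vector. JUN EtOH cells received the solvent ethanol and JUN Dox cells received 100 ng/ml Dox, for 16 h by the study's methods. The other 6 libraries (3 vector EtOH, 3 vector Dox) came from cells with an empty vector in place of the JUN vector and are used for comparison. All groups grew in medium with horse serum, insulin, hydrocortisone, cholera toxin and epidermal growth factor. The cells were infected pools of 1 cell line. The study describes the 3 libraries of a group as biological replicates. The p-values rest on the spread within groups, estimated jointly over all 4 groups, the vector groups included. No library came from cells given Dox without the YAP5SA construct, so an effect of Dox itself and an effect of YAP5SA cannot be told apart.

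YAP is a transcriptional coactivator that the Hippo kinases LATS1 and LATS2 keep in the cytoplasm, and in YAP5SA the sites those kinases phosphorylate are mutated. In the nucleus YAP works mainly through TEAD transcription factors, which bind a short DNA motif and switch on genes for secreted matricellular proteins, growth and Hippo feedback. JUN is a subunit of AP-1, a dimer of JUN and FOS family proteins that often binds near TEAD at the same enhancers. In mammary epithelial cells YAP is known for driving proliferation and a change away from the differentiated epithelial state.

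Total counts of the 6 libraries ran from 18594867 to 28993487. The first principal component of log2 CPM over these 6 libraries held 57.4% of the variance and separated Dox from EtOH. Libraries of a group differed in how their deviations followed gene GC content, with r across genes of -0.355 in replicate 1 and 0.365 in replicate 3 of JUN Dox. In JUN EtOH this r was -0.199 in replicate 1 and 0.224 in replicate 3. In the vector libraries it ran from -0.0821 to 0.0681. Levels are in CPM, the counts of a gene relative to the TMM-scaled library size, and log2 fold changes (JUN Dox over JUN EtOH) come with standard errors (SE) and adjusted p-values of edgeR's quasi-likelihood test. A single value in brackets after a gene is its log2 fold change in JUN cells. Markers of basal mammary epithelium were all detected, with a summed level of 12680 to 13802 CPM in JUN EtOH and 8862 to 10988 CPM in JUN Dox. Of 8 leukocyte markers, 4 had no count in any of the 6 libraries, among them CD3E, NKG7 and HBB, and the sum (88.7 to 103 CPM in JUN EtOH, 53.2 to 73.4 CPM in JUN Dox) was nearly all CD68, which epithelial cells also express. The 6 endothelial markers summed to at most 1.36 CPM. The 8 fibroblast markers summed to 127 to 140.4 CPM in JUN EtOH and 135 to 152 CPM in JUN Dox, with COL1A2 at 0. The 7 markers of hormone-responsive luminal cells summed to 24.3 to 26.9 CPM and 26.0 to 32.4 CPM. The 8 heat-shock genes used as a sign of stress summed to 5136 to 5892 CPM in JUN EtOH and 6942 to 8046 CPM in JUN Dox, and their part in the results was not tested.

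JUN had 1399, 1374 and 1064 CPM in the JUN EtOH libraries and 1325, 1274 and 1146 CPM in the JUN Dox libraries. The groups overlapped, with a log2 fold change of -0.035 (SE 0.15, adjusted p 0.910), and the sign of this value changed without JUN EtOH replicate 1, JUN EtOH replicate 2 or JUN Dox replicate 3. In vector cells JUN went from 55.0, 35.5 and 52.2 to 188, 186 and 194 CPM, so the highest vector library stayed far below the lowest JUN library. YAP1 reads were 249, 243 and 211 CPM without and 365, 267 and 208 CPM with Dox in JUN cells, a log2 fold change of 0.26 (SE 0.16, adjusted p 0.308). The 2 groups overlapped for YAP1, for which reads of the endogenous gene and of the construct cannot be told apart. These reads therefore do not give the amount of YAP5SA, which is not compared here between JUN and vector cells.

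With JUN already high, YAP5SA induction still changed a large set of genes. Of 14775 genes tested, 3168 were called at an adjusted p under 0.05 (21.4%), with 1649 higher (11.2%) and 1519 lower (10.3%). These percentages are the background against which each gene list is read. The median log2 fold change of all tested genes was 0.0032. Falls were larger than rises: the median absolute log2 fold change was 0.50 among genes called higher and 0.69 among those called lower, and 460 of the lower but 229 of the higher genes reached a 2-fold change (log2 of 1). The call count depended on single libraries. It was 2076 without JUN EtOH replicate 2, the library whose loss lowered it most.

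Conserved YAP targets had the largest share of members called higher among 24 gene lists. All 24 lists were chosen with earlier results of these data known, so this rank is a description only. Of 22 conserved YAP targets tested, 15 were called higher and 0 lower, with a median log2 fold change of 1.06. At an unadjusted p under 0.05 edgeR gave 1 lower member (NT5E), and DESeq2 called 0 lower. In vector cells 17 of the 22 were called higher (15.6% of all tested genes were), with a median of 1.52. The 8 secreted factors of the list were all called higher in JUN cells, with a median of 1.59 there and of 3.11 in vector cells. The induction was called less positive in JUN cells for 3 of these 8 and for 5 of the 22, at a background of 0.826% of all tested genes. CCN1, a matricellular ligand of integrins, had 60.7, 59.2 and 64.5 CPM without and 1077, 1071 and 1068 CPM with induction, a 17.4-fold rise of the mean. CCN2, a related matricellular protein, had 7.39, 6.07 and 8.82 CPM in JUN EtOH and 71.3, 75.4 and 70.6 CPM in JUN Dox, a log2 fold change of 3.29 (SE 0.16, adjusted p 1.17e-08). For both genes the 3 Dox libraries lay close together and far above all EtOH libraries. AMOTL2, a scaffold that binds YAP and takes part in Hippo feedback, had 119, 109 and 112 CPM and then 430.3, 488 and 545 CPM. AXL, a receptor tyrosine kinase, had 123, 107 and 152 CPM and then 353, 424 and 506 CPM. Both genes had groups that did not overlap, as had 39.3% of all tested genes. The 7 members that were not called in JUN cells were NT5E, MYOF, RBMS3, DOCK5, PTPN14, ARHGEF17 and ASAP1, with log2 fold changes from -0.28 to 0.40.

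Promoter sequences of 4 plotted YAP targets are shown because TEAD factors, the DNA-binding partners of YAP, bind the motif marked in them. Only promoters that held a marked motif are shown, so the 4 do not tell how often YAP targets hold it. No promoter was listed for CCN1, and that of ANKRD2 is not shown. They are the 250 bases before the RefSeq transcription start on GRCh38.p14, read 5′ to 3′ on the gene's strand. Capitals mark the TEAD motif GGAATG on either strand. In the ANKRD1 promoter they also mark a match to the AP-1 motif TGANTCA, where N is any base.
CCN2, chr6:131951373-131951622, minus strand: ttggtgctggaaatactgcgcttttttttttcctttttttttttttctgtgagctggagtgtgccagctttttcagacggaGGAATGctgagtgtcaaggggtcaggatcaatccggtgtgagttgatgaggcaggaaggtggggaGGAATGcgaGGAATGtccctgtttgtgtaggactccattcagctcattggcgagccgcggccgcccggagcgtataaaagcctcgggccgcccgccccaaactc
AMOTL2, chr3:134374448-134374697, minus strand: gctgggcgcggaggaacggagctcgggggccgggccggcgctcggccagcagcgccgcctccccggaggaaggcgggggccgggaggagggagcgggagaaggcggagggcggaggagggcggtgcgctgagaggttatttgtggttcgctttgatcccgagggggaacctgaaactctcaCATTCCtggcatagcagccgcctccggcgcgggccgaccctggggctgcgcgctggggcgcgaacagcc
THBS1, chr15:39580829-39581078, plus strand: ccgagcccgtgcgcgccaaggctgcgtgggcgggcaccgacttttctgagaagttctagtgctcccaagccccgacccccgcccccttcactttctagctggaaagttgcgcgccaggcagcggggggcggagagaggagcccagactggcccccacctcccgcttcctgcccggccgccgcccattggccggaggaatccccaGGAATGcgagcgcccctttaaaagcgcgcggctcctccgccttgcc
ANKRD1, chr10:90921088-90921337, minus strand: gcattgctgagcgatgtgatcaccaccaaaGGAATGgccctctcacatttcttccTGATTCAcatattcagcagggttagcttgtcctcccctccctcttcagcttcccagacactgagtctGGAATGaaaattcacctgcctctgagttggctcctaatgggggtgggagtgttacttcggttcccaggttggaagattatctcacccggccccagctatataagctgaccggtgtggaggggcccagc
CCN2 held 3 TEAD motifs, starting 169, 104 and 95 bases before the start. AMOTL2 held 1 at 69 bases (in 1 of its 2 listed promoters), THBS1 held 1 at 46 bases, and ANKRD1 held 2 TEAD motifs at 220 and 128 bases. A match to TGANTCA, with the letters TGATTCA, lay between these 2 at 195 bases.

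The motif counts over all genes were taken as a description, with no test. Both strands were searched, and the 2 motifs shared bases in 25 of the 35116 promoters in the table. A promoter was listed for 11491 of the 14775 tested genes, and 13.2% of those genes held the TEAD motif and 6.57% the AP-1 motif. Among genes called higher in JUN cells with a log2 fold change of at least 1, 40 of 172 genes held the TEAD motif (23.3%) and 17 held the AP-1 motif (9.88%). Among genes called lower by as much, 47 of 341 held the TEAD motif (13.8%) and 52 the AP-1 motif (15.2%). Over all calls the shares were 14.5% (TEAD) and 5.98% (AP-1) for higher genes, and 14.8% and 10.2% for lower genes. Of all promoters in the table, 11.9% held the TEAD motif and 6.57% the AP-1 motif. The search covered 250 bases before the start and no enhancers.

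The other genes that the study plotted from these samples responded unevenly in JUN cells. THBS1, a matricellular glycoprotein, had 25.9, 26.2 and 29.7 CPM in JUN EtOH and 92.8, 99.1 and 110.0 CPM in JUN Dox, against 130.1, 87.3 and 107 CPM and then 1117, 1467 and 1437 CPM in the vector groups. It rose in both, by 1.89 and 3.63 on the log2 scale, and the difference of -1.75 (SE 0.21, adjusted p 0.000401) passed the test. ANKRD1, a nuclear ankyrin-repeat protein, had 0, 3 and 1 counts in JUN EtOH and 5, 5 and 7 counts in JUN Dox. These low counts give a ratio of 4.04 with a 95% counting interval of 1.32 to 16.5, and its call (adjusted p 0.0328) was lost in 7 of 20 alternatives (adjusted p up to 0.185, without JUN EtOH replicate 1). Here and below such counts of alternatives leave out the test of changes beyond 1 on the log2 scale, a stricter question that called 179 genes. ANKRD2 had 0.968, 0.927 and 1.50 CPM and then 1.66, 3.76 and 2.98 CPM, a log2 fold change of 1.33 (SE 0.30, adjusted p 0.00514) that left all JUN libraries below the lowest vector EtOH library. IL1B, an inflammatory cytokine, was high in JUN cells with or without induction (1060.1, 807 and 837 CPM in JUN EtOH, 1075, 1032 and 1023 CPM in JUN Dox) and was not called (0.21, adjusted p 0.266). PLAU, the urokinase protease, fell from 132, 115 and 88.9 to 83.9, 68.6 and 56.2 CPM (-0.69, SE 0.18, adjusted p 0.0142). Its reads are shared with the overlapping gene C10orf55, which had almost the same counts, so this value is uncertain, and the call was lost in 2 of 21 alternatives (adjusted p up to 0.0756, without JUN EtOH replicate 1).

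**Figure D1:**
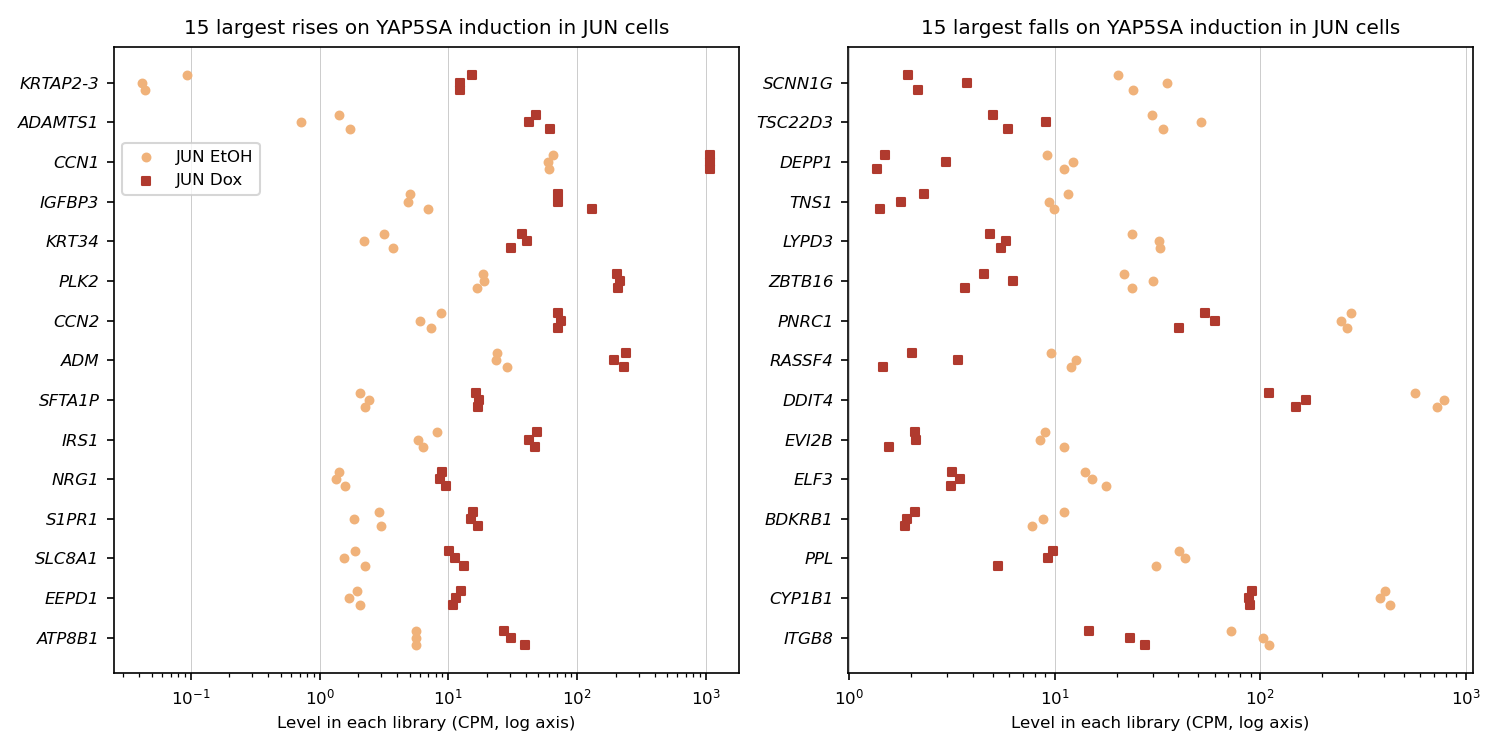
Level of the 15 genes with the largest rises (left) and the 15 with the largest falls (right) among called genes of at least 5 CPM in JUN cells, as CPM on a log axis with 1 point per library (circles, 3 JUN EtOH; squares, 3 JUN Dox). Squares and circles do not overlap in any of the 30 genes, as the choice of the genes required, and CCN1 has its 3 squares at 1068 to 1077 CPM and its 3 circles at 59.2 to 64.5 CPM.

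The 15 largest rises were taken from the called genes that averaged 5 CPM or more and whose groups do not overlap. They reached log2 fold changes of 2.52 to 7.69, and several of these genes encode secreted or cell-surface proteins. ADAMTS1, a secreted metalloprotease that cuts matrix proteoglycans (GRCh37 chromosome 21, 28208074 to 28217728, minus strand), had 1.72, 0.716 and 1.41 CPM in JUN EtOH and 62, 42.6 and 48.0 CPM in JUN Dox. This was a 39.8-fold rise of the mean (5.31, SE 0.22, adjusted p 1.26e-09). IGFBP3, a carrier of insulin-like growth factors, had 6.91, 4.85 and 5.07 CPM and then 131, 71.3 and 70.6 CPM, with JUN Dox replicate 1 the highest. ADM, which encodes the vasodilator peptide adrenomedullin, had 28.5, 23.5 and 24.0 CPM and then 232, 194 and 239.7 CPM. NRG1, a ligand of ERBB receptors, was low without induction (1.58, 1.35 and 1.41 CPM) and reached 9.63, 8.69 and 8.88 CPM. These 4 genes also rose in vector cells, by 3.59, 5.98, 5.66 and 3.99.

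A kinase, a docking protein and a receptor were also among the largest rises. PLK2, a polo-like kinase and p53 target, had 16.7, 19.0 and 18.5 CPM and then 206, 217 and 205 CPM (3.54, SE 0.10, adjusted p 2.55e-11). IRS1, the docking protein of insulin and IGF receptors, had 6.34, 5.82 and 8.17 CPM and then 47.0, 41.9 and 48.4 CPM. S1PR1, a receptor for sphingosine 1-phosphate, had 2.99, 1.85 and 2.91 CPM and then 17.1, 15 and 15.5 CPM. Other rises of the 15 were EEPD1 (2.60), the pseudogene SFTA1P (2.90), the sodium-calcium exchanger SLC8A1 (2.61) and the phospholipid flippase ATP8B1 (2.52). The last 2 overlap antisense genes that had similar counts and moved alike, so reads from the 2 strands cannot be told apart.

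A pair of hair keratin genes also rose. KRT34, a type I hair keratin, had 3.70, 2.23 and 3.19 CPM in JUN EtOH and 30.9, 40.5 and 37.4 CPM in JUN Dox (3.58, SE 0.20, adjusted p 4.17e-08). KRTAP2-3, a keratin-associated protein (GRCh37 chromosome 17, 39215492 to 39216366, minus strand), had 1, 1 and 2 counts in JUN EtOH and 245, 285 and 431 counts in JUN Dox. The ratio was 229, with a 95% counting interval of 89.0 to 841. KRTAP2-3 has near-identical neighbours, and counting could have split their reads, so its level is uncertain. In vector cells KRTAP2-3 went from 0.0380, 0 and 0.0449 to 5.23, 4.46 and 4.92 CPM and KRT34 from 0.456, 0.249 and 0.359 to 3.88, 5.00 and 3.02 CPM. The inductions of KRT34 in JUN and vector cells differed by 0.15 (SE 0.47, adjusted p 0.980), and those of KRTAP2-3 had an adjusted p of 0.978, so neither difference passed the test.

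The 15 largest falls, taken by the same rule, ran from -2.13 to -3.36. SCNN1G, the gamma subunit of the epithelial sodium channel (GRCh37 chromosome 16, 23194066 to 23228204, plus strand), had 23.9, 35.3 and 20.4 CPM in JUN EtOH and 2.16, 3.72 and 1.92 CPM in JUN Dox (-3.36, SE 0.28, adjusted p 9.25e-07). TSC22D3, known as the glucocorticoid-induced leucine zipper, had 33.8, 51.8 and 29.8 CPM and then 5.92, 9.08 and 5.01 CPM. ZBTB16, a zinc-finger transcription factor, had 23.8, 30.2 and 21.6 CPM and then 3.66, 6.27 and 4.51 CPM. DDIT4, an inhibitor of mTORC1, was an abundant transcript that went from 724, 788 and 569 to 149, 166 and 110.2 CPM (-2.29, SE 0.16, adjusted p 2.66e-07). The highest Dox library was below the lowest EtOH library by more than 3-fold for each of these 4 genes.

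The other falls spanned several roles. PNRC1, a nuclear receptor coactivator, had 266, 247 and 278 CPM and then 40.2, 59.9 and 54.1 CPM. CYP1B1, a cytochrome P450 that hydroxylates estrogens, had 427, 382 and 404 CPM and then 89.0, 88.2 and 91.5 CPM. Epithelial adhesion genes were among them: LYPD3 (-2.46), the desmosome-linked protein periplakin (PPL, -2.22), the integrin subunit ITGB8 (-2.13) and the focal adhesion protein TNS1 (-2.47). ELF3, an epithelial ETS factor, had 17.8, 15.1 and 14 CPM and then 3.11, 3.46 and 3.16 CPM. The bradykinin receptor BDKRB1 fell by 2.23 on the log2 scale. DEPP1 (-2.49) and RASSF4 (-2.32) overlap each other on opposite strands and had almost equal counts, so the 2 falls may be 1. EVI2B (-2.29) lies within the much more abundant NF1, and its value is uncertain for that reason.

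**Figure D2:**
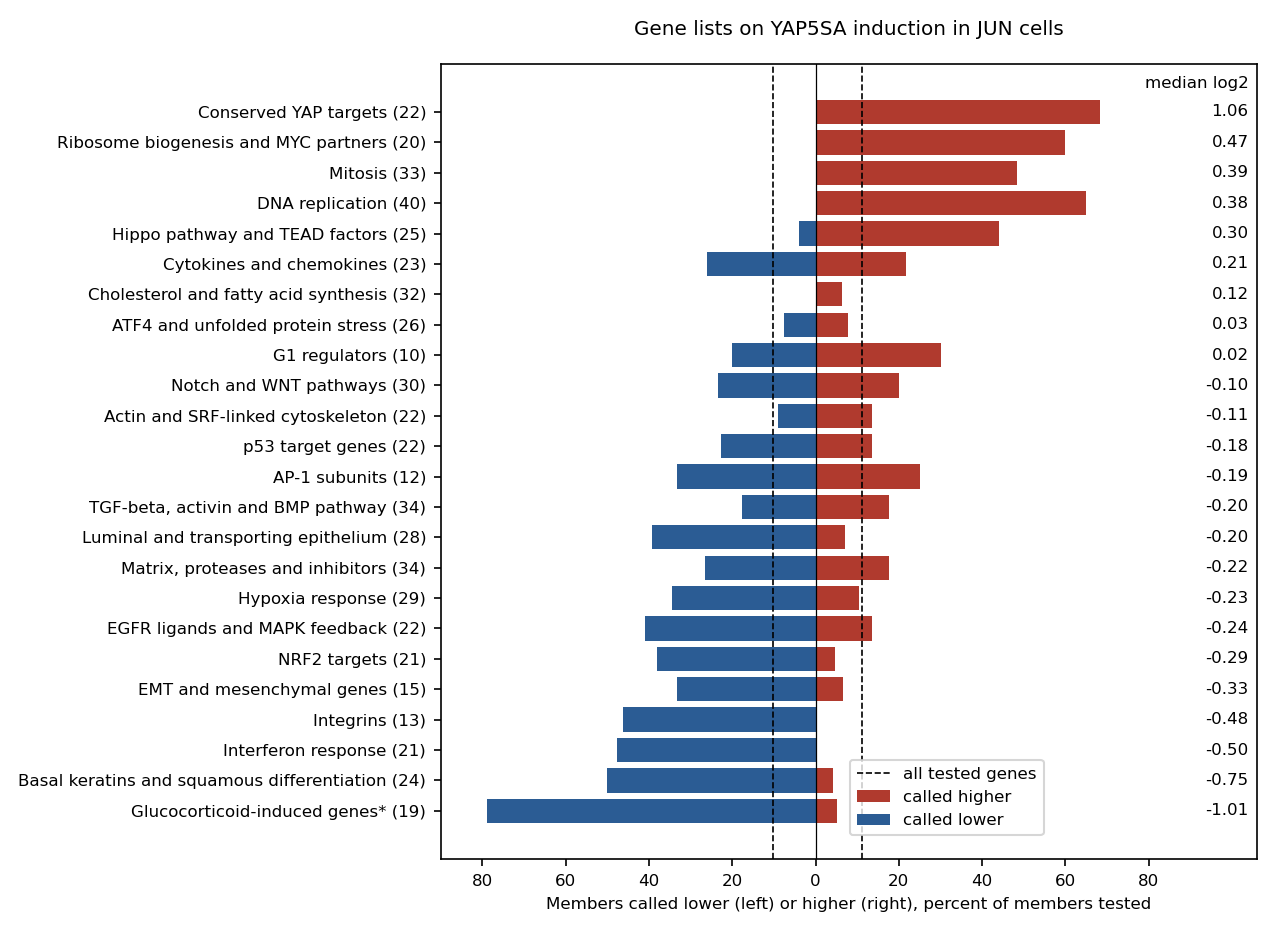
Share of the tested members of 24 gene lists called lower (left bars) or higher (right bars) on YAP5SA induction in JUN cells, with the number tested in brackets and the median log2 fold change at the right. Dashed lines mark the shares among all tested genes, 10.3% lower and 11.2% higher. All lists were chosen with earlier results of these data known, and the starred list was written after values had been seen.

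Hippo pathway genes were called higher more than lower. Of 25 Hippo pathway and TEAD genes tested, 11 were called higher and 1 lower (median 0.30). The 17 kinases and scaffolds all had log2 fold changes above 0, and 9 of them were called higher. FRMD6, a FERM-domain scaffold upstream of the kinases, had 90.3, 79.1 and 82.2 CPM and then 255, 209.9 and 208 CPM. AJUBA, a LIM protein that restrains LATS kinases, had 95.1, 102 and 94.6 CPM and then 243, 240.4 and 242 CPM. WWC1, the scaffold KIBRA, had 139, 106 and 129 CPM and then 289, 290.0 and 292 CPM. NF2, the tumour suppressor merlin, rose by 0.85 (SE 0.11, adjusted p 7.99e-05), and the kinase genes LATS2 and STK3 by 0.67 and 0.67. Among the nuclear factors TEAD4 rose by 0.46 and WWTR1, which encodes the YAP paralog TAZ, fell (-0.75), whereas TEAD1, TEAD2 and TEAD3 were not called.

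AP-1 subunits moved in both directions. Of 12 tested, 3 were called higher and 4 lower, and none of the JUN family rose. FOS, an immediate early subunit, had 15.8, 18.5 and 16.2 CPM in JUN EtOH and 4.01, 5.66 and 3.41 CPM in JUN Dox (-1.95, SE 0.20, adjusted p 6.70e-06). FOSL1, the FOS family member linked to basal and invasive cells, moved the other way, from 176, 149.9 and 179 to 379, 403 and 483 CPM (1.33, SE 0.13, adjusted p 3.92e-06). JUNB had 120.4, 111 and 110.1 CPM and then 41.8, 55.4 and 49.9 CPM, and JUND had 61.6, 62.3 and 79.7 CPM and then 26.2, 46.0 and 46.6 CPM. Both fell with groups that did not overlap. JUNB overlaps HOOK2 on the other strand, whose counts were 15.3% of those of JUNB. BATF3 rose (1.17) and FOSL2 fell (-0.62). The FOSL2 value in vector cells was 0.32, and the 2 inductions differed by -0.94 (SE 0.20, adjusted p 0.0294).

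Genes of EGFR signalling and its MAPK feedback were called lower more than higher, 9 against 3 of 22 tested. Without JUN EtOH replicate 1 the 9 became 5. DUSP6, a phosphatase that inactivates ERK, had 99.9, 94.1 and 88.0 CPM and then 30.7, 35.1 and 28.6 CPM (-1.58, SE 0.12, adjusted p 3.65e-07). DUSP5, a nuclear ERK phosphatase, rose instead, from 39.6, 34.3 and 27.3 to 98.2, 107 and 92.6 CPM (1.56, SE 0.12, adjusted p 6.33e-07). DUSP10, which acts on p38 and JNK, fell by 1.32 on the log2 scale. Ligands of the receptor divided: EREG fell from 111, 90.4 and 74.9 to 53.1, 44.5 and 31.8 CPM, BTC fell (-1.08, a call lost without JUN EtOH replicate 1), and AREG rose (1.05).

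Genes of cell proliferation and of ribosome production rose by small amounts in a large share of members. Of 40 DNA replication genes, 26 were called higher and 0 lower, with a median log2 fold change of 0.38, and 38 of 40 values were above 0. The 0 held at an unadjusted p under 0.05 and with DESeq2. The higher count was 14 without JUN EtOH replicate 2, 16 without JUN EtOH replicate 1 and 17 without JUN Dox replicate 2. CDC6, which loads the replicative helicase, had 52.2, 47.9 and 49.4 CPM in JUN EtOH and 90.7, 84.3 and 83.3 CPM in JUN Dox. CDC45, a part of that helicase, had 11.8, 15.4 and 13.3 CPM and then 25.8, 23.9 and 21.0 CPM. RRM2, a subunit of ribonucleotide reductase, had 287, 256 and 255 CPM and then 468, 447 and 432 CPM. In these 3 genes each Dox library was above each EtOH library, with log2 fold changes of 0.75 to 0.80. RFC3, a clamp loader subunit, rose by 0.76 (SE 0.14, adjusted p 0.00143), and ORC6, of the origin recognition complex, by 0.71 (SE 0.20, adjusted p 0.0208). E2F2, an activator of replication genes, had a value of -0.18 and was not called.

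Mitotic genes had values of a similar size. Of 33 tested, 16 were called higher and 0 lower (median 0.39), although 1 was lower at an unadjusted p under 0.05 and DESeq2 called 1 lower. CDC20, an activator of the anaphase-promoting complex, had 120.1, 117 and 152 CPM and then 201, 225 and 267 CPM. AURKB, a mitotic kinase, had 27.5, 30.8 and 33.0 CPM and then 51.3, 50.4 and 59.6 CPM. KIF23, AURKA and UBE2C rose by 0.68, 0.60 and 0.59. MKI67, a proliferation marker, was not called (0.36, adjusted p 0.416). Of 20 genes of ribosome biogenesis and MYC partners, 12 were called higher and 0 lower (also 0 at an unadjusted p under 0.05 and with DESeq2), with all 20 values above 0 and a median of 0.47. RRP9, a nucleolar RNA-processing factor, had 18.4, 19.7 and 24.9 CPM and then 32.8, 35.9 and 47.0 CPM, and RRS1 had 54.4, 55.8 and 56.3 CPM and then 84.5, 80.7 and 98.7 CPM. WDR43 rose by 0.64. UTP4 (whose reads overlap CHTF8) rose by 0.60, and BOP1 by 0.60 with groups that overlapped.

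The same 3 lists gave similar counts in vector cells. There 19 of 40 replication genes, 14 of 33 mitotic genes and 11 of 20 ribosome biogenesis genes were called higher, with medians of 0.28, 0.22 and 0.38. For the difference between the inductions 0 members of the 3 lists were called by edgeR or DESeq2, with 1 mitotic gene and no other at an unadjusted p under 0.05. Without induction, JUN EtOH was called below vector EtOH for 23 of 40, 9 of 33 and 14 of 20 members, in the same order. It was called above for 0. Of all tested genes 18.9% were called lower and 20.1% higher in that comparison. It shares the JUN EtOH libraries with the induction in JUN cells, so the counts are only given side by side.

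G1 regulators were fewer. The cyclin genes CCND2 (0.86, SE 0.15, adjusted p 0.00106), CCNE2 (0.57, SE 0.16, adjusted p 0.0182, with reads shared with INTS8) and CCND1 (0.46, SE 0.12, adjusted p 0.0141) were called higher. Of these 3 calls, 1 was left without JUN EtOH replicate 2. CDKN1C, which encodes the cell-cycle inhibitor p57, had 2.68, 7.50 and 5.77 CPM and then 0.301, 0.562 and 0.959 CPM, a log2 fold change of -3.05 (SE 0.40, adjusted p 7.54e-05). CDKN1B (p27) fell slightly (-0.28, SE 0.081, adjusted p 0.0216), and CDKN1A (p21) was not called (-0.25, adjusted p 0.0996). CCND1 reached 281, 321 and 316 CPM in JUN Dox against 583, 731 and 679 CPM in vector Dox, and the 2 inductions differed by -0.99 (SE 0.17, adjusted p 0.00879).

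**Figure D3:**
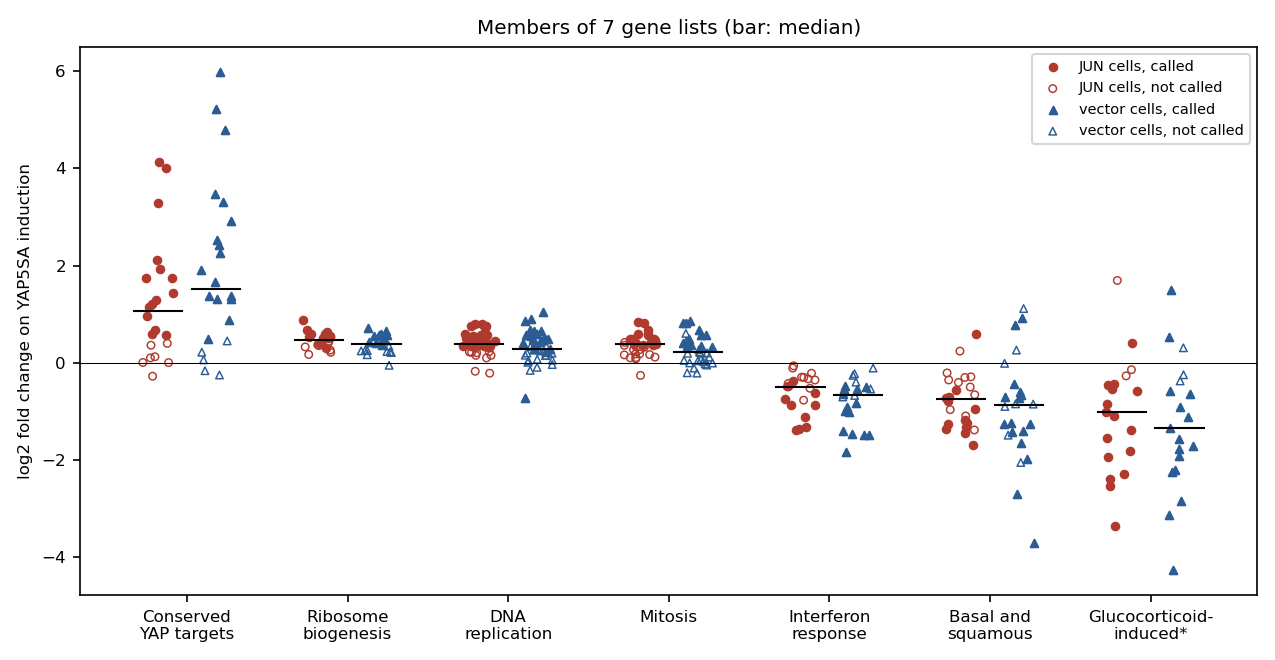
Log2 fold change on YAP5SA induction of each tested member of 7 gene lists in JUN cells (circles) and vector cells (triangles), filled where called, with a bar at each median. Of these 7 lists, conserved YAP targets have the highest median in JUN cells (1.06), the lists of replication, mitosis and ribosome biogenesis have medians of 0.38, 0.39 and 0.47, and the starred list, written after values had been seen, has the lowest (-1.01). All 7 lists were chosen with earlier results of these data known.

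Keratins and squamous differentiation genes were called lower more than higher. Of 24 tested, 12 were called lower and 1 (TGM1, a cross-linking enzyme of the cornified envelope, 0.58) higher, with a median of -0.75 and 22 values below 0. The lower count was 8 without JUN EtOH replicate 3. Its squamous and antimicrobial part gave 6 lower calls, and 3 without JUN EtOH replicate 1. DSG3, a desmosomal cadherin, had 90.7, 99.3 and 84.9 CPM in JUN EtOH and 31.3, 29.4 and 24.5 CPM in JUN Dox (-1.69, SE 0.12, adjusted p 3.13e-07). KRT16, a keratin of activated keratinocytes, had 43.2, 61.9 and 63.4 CPM and then 10.3, 26.3 and 24.6 CPM. S100A9, a subunit of calprotectin, had 529, 626 and 428 CPM and then 129.6, 316 and 221 CPM, with a wide spread in both groups. Its partner S100A8 (-1.32, SE 0.41, adjusted p 0.0388) and SPRR2A (-1.37, SE 0.43, adjusted p 0.0340) lost their calls in 7 of 21 and 5 of 20 alternatives. TP63, the master factor of basal epithelium, fell (-0.96, SE 0.14, adjusted p 0.000225), as did KRT14 (-0.78, SE 0.26, adjusted p 0.0422) and KRT17 (-0.73, SE 0.22, adjusted p 0.0259), while KRT5 was not called (-0.30, adjusted p 0.235). The part of the list with basal keratins and TP63 gave 6 lower calls, and 4 without JUN EtOH replicate 2. The calls of TP63, KRT14 and KRT17 were not followed singly through the alternatives. Keratin paralogs share sequence, and counting may have split their reads. In such bulk libraries fewer cells of a type and less RNA per cell cannot be told apart.

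Genes of luminal and transporting epithelium were also called lower more than higher, mainly those of the epithelial sodium channel and of junctions. Of 28 tested, 11 were called lower and 2 higher. The 16 sodium channel and junction genes gave 8 lower and 2 higher (median -0.44). The 12 luminal keratins and factors gave 3 lower and 0 higher (median -0.11). All 3 channel subunits tested fell: SCNN1G as given above, SCNN1B (-2.06, at 0.440, 1.64 and 1.08 CPM without induction) and SCNN1A (-1.11, SE 0.14, adjusted p 4.59e-05, though its reads are shared with LTBR). CLDN1, a tight junction protein, rose from 20.2, 18.7 and 16.5 to 40.8, 43.6 and 37.9 CPM. CDH1, which encodes E-cadherin (GRCh37 chromosome 16, 68771195 to 68869440, plus strand), fell from 114, 123 and 124 to 50.8, 69.2 and 56.2 CPM in JUN cells (-1.03, SE 0.12, adjusted p 2.67e-05). In vector cells it had 137, 121 and 130.1 CPM and then 112, 143 and 132 CPM, and the difference between the inductions passed the test (-1.03, SE 0.17, adjusted p 0.00541).

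Of 15 EMT and mesenchymal genes, 1 was called higher and 5 lower. The lower count was 3 without any 1 of JUN EtOH replicate 2, JUN EtOH replicate 3 and JUN Dox replicate 2. It was 8 with an offset for GC content and a replicate block together. CDH4, R-cadherin, rose (0.94). ITGA5 (-0.84), COL1A1 (-1.24), S100A4 (-0.74) and TWIST1 (-0.56) fell, with the S100A4 call lost in 6 of 21 alternatives. S100A4 overlaps S100A3 on the same strand, whose counts were 55.3% of those of S100A4. VIM had a value of -0.024 (adjusted p 0.940), ZEB1 of 0.33 (adjusted p 0.0776) and SNAI2 of -0.39 (adjusted p 0.0541). Integrins fell in 6 of 13 genes and 0 were called higher, also at an unadjusted p under 0.05 and with DESeq2. ITGB8 had 111, 103 and 71.9 CPM and then 27.6, 23.3 and 14.7 CPM, ITGB4 had 435, 429 and 483 CPM and then 178, 249 and 268 CPM, and ITGB6, ITGA5 and ITGA2 fell by 1.09, 0.84 and 0.83 on the log2 scale.

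Genes known to be induced by glucocorticoids were collected after TSC22D3, ZBTB16 and DDIT4 had been seen among the largest falls, so their count describes that choice and supports nothing. Of 19 tested, 15 were called lower and 1 higher in JUN cells, and 14 were called lower (14.4% of all tested genes were) and 2 higher in vector cells. FKBP5, a chaperone of the glucocorticoid receptor, had 619, 667 and 629.7 CPM and then 304, 336 and 309.7 CPM (-1.01, SE 0.13, adjusted p 5.86e-05). PDK4, a kinase that restrains pyruvate dehydrogenase, had 7.44, 10.2 and 6.43 CPM and then 1.66, 2.16 and 2.38 CPM. KLF9 fell by 1.82 and MT1X, a metallothionein, by 1.55 on the log2 scale. SGK1, a kinase that raises sodium channel activity, was the member called higher (0.41, with 0 called higher without any 1 JUN library other than JUN Dox replicate 3), and MT2A was not called (-0.27, adjusted p 0.310). KLF15 had a value of 1.69 at a very low level (0.132, 0.0421 and 0.0469 CPM without induction) and was not called. All libraries were grown with hydrocortisone.

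Interferon response genes were called lower and not higher. Of 21 tested, 10 were called lower and 0 higher (also 0 at an unadjusted p under 0.05 and with DESeq2), all 21 values were below 0 and the median was -0.50. IFI44L had 2.51, 2.78 and 2.77 CPM in JUN EtOH and 1.05, 0.908 and 1.14 CPM in JUN Dox. ISG20, an exonuclease, had 2.29, 1.94 and 2.49 CPM and then 0.502, 1.04 and 0.995 CPM, and OASL had 3.17, 4.05 and 3.33 CPM and then 0.853, 1.73 and 2.2 CPM. These were low levels throughout. IRF9, a subunit of the interferon-activated complex ISGF3, fell (-0.86, SE 0.20, adjusted p 0.00637), as did its partner STAT2 (-0.48, SE 0.13, adjusted p 0.0157). IFIT2 (-1.33) and IFIT3 (-0.88) lie in the span of the more abundant LIPA. With genes under 5 CPM left out, 6 members were called lower.

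NRF2 targets, the detoxification genes, were called lower in 8 of 21 and higher in 1 (HMOX1, 0.58, with 0 called higher without any 1 of JUN EtOH replicate 1, JUN EtOH replicate 2, JUN Dox replicate 2 and JUN Dox replicate 3). The transporter ABCC2 had 33.3, 39.0 and 32.4 CPM and then 13.9, 13.7 and 13.6 CPM. The aldo-keto reductases AKR1C1, AKR1C2 and AKR1C3 fell by 1.0, 1.07 and 1.10 on the log2 scale, but they are near-identical copies whose reads counting can split. The core targets GCLM and TXNRD1 had values of 0.0042 and 0.14 and were not called. Of 29 hypoxia response genes, 10 were called lower and 3 higher. CA12, a carbonic anhydrase, had 259, 253 and 213 CPM and then 85.3, 86.8 and 79.4 CPM, and VEGFA, the vascular growth factor, had 246, 182 and 183 CPM and then 88.1, 64.1 and 68.6 CPM. ADM, given above, was the largest rise of the list. Of its 11 glucose and lactate enzymes 1 was called higher and 1 lower, and LDHA and PGK1 had values of -0.14 and -0.23.

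Cytokines and chemokines divided, with 5 called higher and 6 lower of 23 tested. The higher count was 2 without JUN EtOH replicate 2, 3 without JUN EtOH replicate 3 or without the filter on low counts, and 8 without vector Dox replicate 1. IL6 (GRCh37 chromosome 7, 22765503 to 22771621, plus strand) had 0.528, 0.379 and 0.563 CPM in JUN EtOH and 5.12, 3.50 and 3.27 CPM in JUN Dox. The rise was large (3.0, SE 0.37, adjusted p 4.55e-05) but started from a low level. IL6 overlaps STEAP1B on the other strand, whose counts were 35.0% of those of IL6. In vector cells IL6 had 2.70, 1.70 and 1.08 CPM and then 3.05, 2.43 and 1.69 CPM, and the 2 inductions differed by 2.63 (SE 0.50, adjusted p 0.0151), a call lost without JUN EtOH replicate 2 (adjusted p 0.062). The neutrophil chemokines CXCL2 and CXCL3 rose by 1.26 (SE 0.29) and 1.04 (SE 0.28) from 99.5, 72.8 and 57.8 CPM and 209.8, 141 and 109 CPM. Both calls were lost without the filter on low counts, the CXCL3 call in 4 other alternatives too, and the 2 genes share sequence. IL1RN, the antagonist of the IL1 receptor, fell from 2.42, 3.75 and 3.52 to 0.752, 0.648 and 0.569 CPM, and IL1RL1, the IL33 receptor, from 3.83, 4.76 and 2.21 to 0.451, 0.951 and 0.888 CPM (its reads overlap IL18R1).

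In the TGF-beta, activin and BMP pathway 6 of 34 genes were called higher and 6 lower. The higher count was 3 without JUN EtOH replicate 3. Of 11 target genes of the pathway 4 were called lower and 1 higher. ID1, an inhibitor of basic helix-loop-helix factors, had 263, 280.3 and 247 CPM and then 73.3, 87.1 and 73.7 CPM (-1.75, SE 0.15, adjusted p 1.32e-06), and SMAD7, a feedback inhibitor, had 10.5, 8.26 and 7.79 CPM and then 4.87, 4.80 and 4.30 CPM. TGFB2, a ligand, rose (1.16, SE 0.25), as did FST, the activin antagonist follistatin (0.98, SE 0.30, a call lost in 4 of 20 alternatives). Of 34 matrix, protease and inhibitor genes, 6 were called higher and 9 lower. The lower count was 5 without any 1 of JUN EtOH replicate 1, JUN Dox replicate 2 and JUN Dox replicate 3. SERPINB2, an inhibitor of urokinase, had 22.0, 18 and 16 CPM and then 64.8, 57.2 and 55.1 CPM (1.66, SE 0.14, adjusted p 8.84e-07), and ADAMTS6, a matrix metalloprotease, had 16.3, 14.2 and 14.2 CPM and then 56.7, 46.2 and 43.7 CPM (1.71, SE 0.17, adjusted p 4.19e-06).

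Among Notch and WNT pathway genes 6 of 30 were called higher and 7 lower. DKK1, a secreted WNT inhibitor, had 13.9, 14.3 and 14.4 CPM and then 54.4, 43.2 and 49.4 CPM (1.79, SE 0.13, adjusted p 3.13e-07). HES1, the main Notch target, had 14.2, 15.2 and 15.3 CPM and then 3.46, 5.23 and 4.62 CPM (-1.74, SE 0.14, adjusted p 8.98e-07). SFRP1, another WNT inhibitor, fell from 239.5, 278 and 254 to 106, 114 and 102 CPM, and LFNG, a Notch-modifying glycosyltransferase, from 1.98, 1.81 and 1.83 to 0.652, 0.648 and 0.640 CPM. Of 22 p53 targets, 3 were called higher (PLK2, PMAIP1 and AEN) and 5 lower, with the largest falls in TP53INP1 (-1.62, overlapping NDUFAF6) and BBC3 (-1.34). DESeq2 called 9 of them lower.

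Several lists stood near the background. Of 22 actin and SRF-linked genes, 3 were called higher and 2 lower (median -0.11). CNN3, a calponin, rose from 51.5, 45.6 and 40.6 to 135, 125 and 108 CPM, LIMA1 and TPM1 rose by 0.40 and 0.50, and PDLIM7 fell (-0.82), while CALD1 fell by 0.25 with a call that 14 of 21 alternatives lost. Cholesterol and fatty acid synthesis genes gave 2 higher and 0 lower calls in 32 genes. At an unadjusted p under 0.05 edgeR gave 2 lower members and DESeq2 called 0. INSIG1, a sterol sensor, had 57.3, 65.9 and 51.7 CPM and then 116, 179.9 and 102 CPM, and HMGCS1 rose by 0.54 (SE 0.17, adjusted p 0.0324), a call lost in 5 of 21 alternatives. In vector cells 12 of these 32 were called higher and 3 lower, and 0 passed edgeR's test of the difference (3 at an unadjusted p under 0.05, 0 with DESeq2). Of 26 ATF4 and unfolded protein genes, 2 were called higher and 2 lower, the higher count ranging from 1 to 6 (without JUN Dox replicate 1) over the alternatives. The largest change in that list was in CEBPB, a basic leucine zipper factor that went from 538, 575 and 551 to 186, 213 and 205 CPM (-1.46, SE 0.10, adjusted p 2.27e-07). MTHFD2 rose by 0.50 (it overlaps SLC4A5), XBP1 by 0.35 with groups that overlapped and a call lost in 12 of 21 alternatives, and HERPUD1 fell (-0.49).

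**Figure D4:**
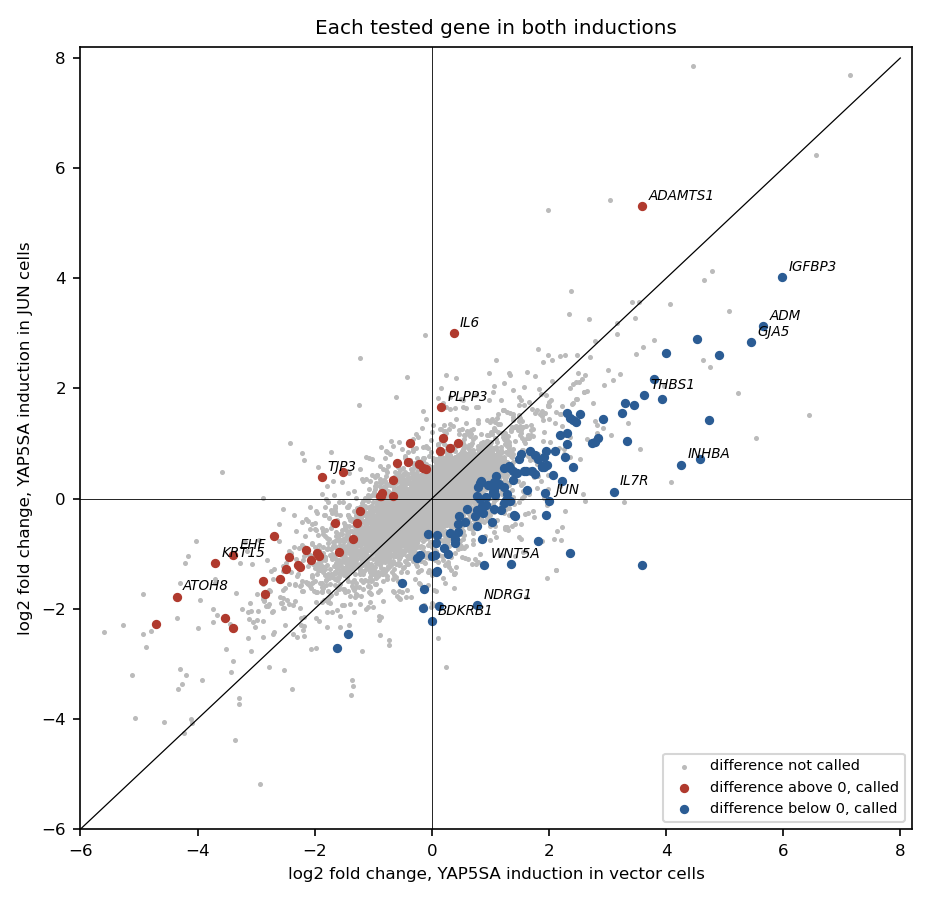
Log2 fold change of each of the 14775 tested genes on YAP5SA induction in vector cells (x axis) and in JUN cells (y axis), with the line of equality. Red and blue points are the 43 genes called above 0 and the 122 called below 0 for the difference between the inductions, and 17 of them are named.

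How far the response in JUN cells followed that in vector cells was then compared, since the 2 inductions share no library. Their calls still rest on the same estimate of spread for each gene, taken jointly over all groups. A gene with a small spread is therefore favoured for a call in both, and the shares of common calls are not those of independent tests. In vector cells 4443 genes were called (30.1%), 2309 higher and 2134 lower. Of the genes called higher in JUN cells, 1248 were also called higher in vector cells, which is 75.7% of the JUN calls and 54.0% of the vector calls. Of those called lower, 1153 were shared, 75.9% of the JUN calls and 54.0% of the vector calls. A further 756 genes were called in JUN cells and not in vector cells, but 674 of them had the same sign there and 27 passed the test of the difference.

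The size of the response was smaller in JUN cells for the genes that responded most in vector cells. Of 419 genes called higher by at least 1 (log2) in vector cells, 363 had a smaller value in JUN cells, with medians of 1.50 in vector and 0.88 in JUN cells. For 80 of them the difference itself was called. Of 692 genes called lower by as much in vector cells, 611 fell less in JUN cells (medians -1.50 and -1.0), and 27 passed the test of the difference. Choosing genes by their vector value favours larger vector values. When genes were chosen by their JUN value instead, the medians were close: 1.53 in JUN and 1.60 in vector cells for the 229 largest rises, and -1.43 and -1.44 for the 460 largest falls. That choice favours larger JUN values in turn, so neither comparison of medians is free of the way its genes were chosen.

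The difference between the inductions was called for 165 genes (1.12%), 43 above 0 (0.291%) and 122 below 0 (0.826%), at 1330 genes with an unadjusted p under 0.05. DESeq2 called 358. Some genes responded more strongly in JUN cells, and for the genes of this and the next 2 paragraphs the value in brackets is this difference. ADAMTS1 reached 62, 42.6 and 48.0 CPM in JUN Dox against 16, 18 and 15.5 CPM in vector Dox, from 1.72, 0.716 and 1.41 CPM and 1.41, 1.20 and 1.48 CPM in the EtOH groups, a difference of 1.72 (SE 0.33, adjusted p 0.0170) that was not called in 2 of 20 alternatives (adjusted p up to 0.0764, without vector EtOH replicate 3). PLPP3, a phosphatase that breaks down lysophosphatidic acid, went from 16.9, 12.9 and 13.2 to 59.1, 39.3 and 37.1 CPM in JUN cells and from 4.75, 3.09 and 2.65 to 3.58, 4.42 and 3.88 CPM in vector cells (1.49, SE 0.31, adjusted p 0.0288). Its call was lost in 5 of 20 alternatives, with an adjusted p of up to 0.109 without vector EtOH replicate 1.

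Most of the highest differences came from genes that fell less in JUN cells. ATOH8, a basic helix-loop-helix factor that BMP signals induce, had 15.7, 17.1 and 17.6 CPM and then 4.06, 5.23 and 5.33 CPM in JUN cells, and 5.86, 6.04 and 6.15 CPM and then 0.436, 0.180 and 0.248 CPM in vector cells (2.58, SE 0.30, adjusted p 0.000337). EHF, an epithelial ETS factor, had 41.7, 44.5 and 40.2 CPM and then 17.6, 24.3 and 20.4 CPM in JUN cells, and 22.4, 26.5 and 20.2 CPM and then 1.96, 2.79 and 1.82 CPM in vector cells (2.38, SE 0.23, adjusted p 6.13e-05). KRT15, a basal keratin, had 5.06, 9.69 and 8.35 CPM without induction in JUN cells against 32.9, 56.7 and 35.0 CPM in vector cells, and the 2 Dox groups were alike at 3.16, 3.03 and 3.98 CPM (JUN) and 2.88, 3.92 and 2.77 CPM (vector). The difference was 2.53 (SE 0.37, adjusted p 0.00200). PRR15L (2.43, SE 0.55, adjusted p 0.0452) also started lower in JUN cells, and its call was lost in 11 of 20 alternatives. TJP3, a tight junction scaffold, was the member of this set with values above 0 in JUN cells (0.39, adjusted p 0.238) and a fall in vector cells (-1.88), but it shares reads with APBA3.

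Most of the 8 lowest differences were rises that were much smaller in JUN cells. INHBA, which encodes the activin A subunit (GRCh37 chromosome 7, 41706766 to 41745432, minus strand), had 6.29, 6.62 and 5.07 CPM and then 7.73, 10.6 and 9.24 CPM in JUN cells. In vector cells it had 2.21, 1.40 and 1.97 CPM and then 33.7, 34.2 and 40.3 CPM. The log2 inductions of 0.62 and 4.26 differed by -3.64 (SE 0.24, adjusted p 3.67e-06). The small rise in JUN cells was not called in 2 of 21 alternatives (adjusted p up to 0.0734, without JUN Dox replicate 2), and INHBA overlaps an antisense gene. IL7R, a cytokine receptor subunit, had 3.61, 3.83 and 2.91 CPM and then 3.86, 3.89 and 3.59 CPM in JUN cells with overlapping groups, against 4.37, 3.94 and 4.89 CPM and then 30.9, 45.2 and 38.0 CPM in vector cells (-2.98, SE 0.23, adjusted p 1.13e-05). GJA5, a gap junction connexin, rose in both but to 4.57, 5.23 and 3.98 CPM in JUN and 23.7, 26.7 and 24.5 CPM in vector cells (-2.61, SE 0.31, adjusted p 0.000337). ADM rose in both as well (3.13 and 5.66), with a higher starting level in JUN cells, and differed by -2.53 (SE 0.23). BDNF (-2.31, SE 0.33), PTX3 (-2.28, SE 0.21) and EGLN3 (-2.25, SE 0.29) completed this set, each with an overlapping neighbour of similar or higher counts, so their values are uncertain.

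**Figure D5:**
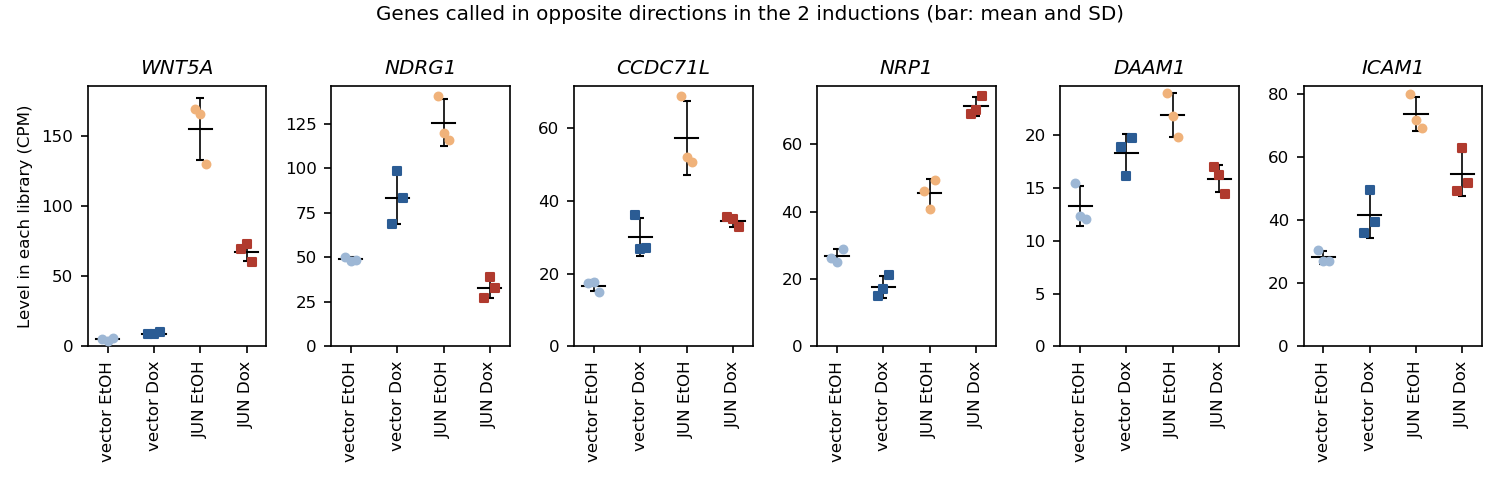
Level in CPM of the 6 genes named among those called in opposite directions, with 1 point per library for the 4 groups of 3 libraries and bars for mean and SD. WNT5A, NDRG1, CCDC71L, DAAM1 and ICAM1 fall with Dox in JUN cells and rise in vector cells, and NRP1 does the reverse.

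A set of 11 genes was called in opposite directions in the 2 inductions, and the difference was called for 10 of them. In 9 of the 11 the gene fell in JUN cells and rose in vector cells. WNT5A, a ligand of non-canonical WNT signalling (GRCh37 chromosome 3, 55499743 to 55524567, minus strand), had 169.7, 166 and 130.0 CPM and then 69.8, 73.2 and 60.0 CPM in JUN cells, but 5.02, 3.74 and 5.92 CPM and then 8.55, 8.97 and 9.91 CPM in vector cells. Its log2 fold changes were -1.20 (SE 0.14, adjusted p 2.13e-05) and 0.90 (SE 0.16, adjusted p 0.000797). NDRG1, a stress-responsive gene of differentiation, had 140.4, 119.8 and 116 CPM and then 26.9, 39.0 and 32.8 CPM in JUN cells, and 50.3, 47.8 and 48.6 CPM and then 68.7, 98.3 and 83.4 CPM in vector cells. Its Dox libraries lay below its EtOH libraries in JUN cells and above them in vector cells. ICAM1, an adhesion molecule for leukocytes, had values of -0.43 and 0.56, and DAAM1, a formin of WNT signalling, of -0.47 and 0.45. The JUN cell calls of these 2 genes were lost in 4 and 3 of 21 alternatives. CCDC71L had values of -0.73 and 0.85. NRP1, a co-receptor of VEGF and semaphorins, went the other way, from 46.3, 40.8 and 49.4 to 69.1, 70.2 and 74.3 CPM in JUN cells and from 26.2, 25.1 and 29 to 14.9, 16.9 and 21.1 CPM in vector cells.

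Several of these genes started at another level in JUN cells. The comparison of JUN EtOH with vector EtOH shares its JUN EtOH libraries with the induction in JUN cells, so the values are only given side by side. Without induction the log2 difference of JUN EtOH over vector EtOH was 4.98 for WNT5A, 1.36 for NDRG1, 1.78 for CCDC71L, 1.38 for ICAM1 and 0.71 for DAAM1. For NRP1 it was 0.76. It was 2.11 for VEGFA, 1.70 for CA12 and 2.57 for EREG, whose induction values in JUN cells were -1.47, -1.53 and -1.10. For KRT15 it was -2.43 and for PRR15L -3.20, beside inductions of -1.17 and -2.28. In that comparison 20.1% of all tested genes were called higher and 18.9% lower. Of the 28 luminal and transporting epithelium genes, 4 were called higher and 18 lower there.

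A last description concerns the Top-YAP-induced (TYI) list of the study, which was drawn up from a separate experiment. The list as used here held 407 genes, of which 401 were tested. In JUN cells 226 of the 401 were called higher, with a median log2 fold change of 0.45, and in vector cells 268, with a median of 0.68. The difference between the inductions was called below 0 for 49 of the 401 and above 0 for 3. Of all tested genes 0.826% were called below 0 and 0.291% above 0. The 17 called lower in JUN cells are a smaller share than the 10.3% of all tested genes, and they became 10 without JUN EtOH replicate 2. In vector cells 8 were called lower. Of the 17, 9 had a positive value in vector cells. They included CCDC71L, given above, and the serpins SERPINB3 (-1.0 in JUN and 0.82 in vector cells) and SERPINB4 (-1.10 and 0.61), near-identical neighbours whose reads counting can split. The SERPINB3 call was lost in 12 of 21 alternatives (adjusted p up to 0.275). MAP2, a microtubule-associated protein, had values of -1.20 and 1.35, and PADI2, a peptidylarginine deiminase, of -1.68 and 0.063.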

How the data were processed

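Poly(A) RNA of 12 MCF10A libraries was sequenced as single-end reads of 75 bases. The deposited values were raw counts per Entrez gene. By the methods and the submitters' processing notes, the authors made them by trimming with Cutadapt 4.2, aligning with Bowtie2 2.3.5.1 (in the notes) to hg19 and counting overlaps in R. The gene annotation and the use of strand were not given in the sources used here, so reads of overlapping genes cannot be told apart.

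Symbols matched 99.4% of identifiers, and positions are those of GRCh37. From the counts, 14775 genes passed edgeR's filterByExpr (minimum count 10). A single robust quasi-likelihood model (edgeR 4.0.16, R 4.3.3) was fitted to all 4 groups, and 3 contrasts are reported with Benjamini-Hochberg adjustment over all tested genes and a threshold of 0.05: JUN Dox against JUN EtOH, the same in vector cells, and their difference. JUN EtOH against vector EtOH is given as values and counts of calls. The scripts were tested on simulated data. The biological coefficient of variation was 12.5%, and a 95% interval of a count ratio covers counting error only.

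Alternatives were DESeq2 1.42.0, other scaling, other filters, an offset for GC content, a replicate block, glmTreat against a log2 change of 1, the JUN or vector libraries alone, and each library left out in turn. Counts of alternatives that lost a call leave out glmTreat.

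Members and gene lists were chosen with earlier results of these data known. Genes are named by rule: JUN and YAP1, 8 genes plotted by the study, the 15 highest and 15 lowest changes in JUN cells, the 8 highest and 8 lowest differences, 6 genes called in opposite directions, and up to 5 called members of each list with the largest changes. Some genes that fall under these rules or lists are not reported here. All other named genes were chosen after their values were seen.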

Additional observations from a re-analysis of the deposited data

Results flagged for a closer look

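A test of the difference between the inductions (JUN cells minus vector cells, log2) was passed by 165 genes. Those of them that are named in the results are given here with their differences, all from edgeR's test adjusted over all tested genes.

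The induction was more positive in JUN cells for IL6 (2.63), ATOH8 (2.58), KRT15 (2.53), PRR15L (2.43), EHF (2.38), TJP3 (2.28), ADAMTS1 (1.72), PLPP3 (1.49), CYP1B1 (1.35), NRP1 (1.25), HES1 (1.11) and PNRC1 (1.04). Of these 12 genes IL6, ADAMTS1, PLPP3 and NRP1 were called higher in JUN cells. TJP3 was not called there, and the other 7 fell in JUN cells by less than in vector cells.

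The induction was less positive in JUN cells for the secreted factors and receptors INHBA (-3.64), IL7R (-2.98), ADM (-2.53), BDNF (-2.31), PTX3 (-2.28), BDKRB1 (-2.22), WNT5A (-2.09), IGFBP3 (-1.97), THBS1 (-1.75), WNT7B (-1.40), NRG1 (-1.35), LYPD3 (-1.03) and ICAM1 (-0.99). It was also less positive for NDRG1 (-2.70), GJA5 (-2.61), EGLN3 (-2.25), JUN (-2.03), SFTA1P (-1.64), CCDC71L (-1.58), CCND2 (-1.25), TPM1 (-1.20), CA12 (-1.02), CCND1 (-0.99), DAAM1 (-0.92), DUSP5 (-0.76), MAP2 (-2.54), CDH1 (-1.03) and FOSL2 (-0.94). Some of these calls were lost under alternatives other than the test against a log2 change of 1. That held for DUSP5 in 14 of 20, PRR15L in 11, WNT7B in 9, DAAM1 and LYPD3 in 7, PNRC1 in 6, PLPP3 in 5, IGFBP3 in 3, ADAMTS1 and NRG1 in 2 and ICAM1 in 1 of 20, and for IL6 in 1 of 19. MAP2, CDH1 and FOSL2 were not followed through the alternatives. BDKRB1, a bradykinin receptor, had 7.75, 8.76 and 11.1 CPM in JUN EtOH and 1.86, 1.90 and 2.10 CPM in JUN Dox, against 5.70, 3.54 and 6.60 CPM and then 5.23, 5.54 and 5.08 CPM in vector cells. For JUN itself the reads of the vector and of the endogenous gene cannot be told apart.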

How the results depend on the processing

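The count of genes called in JUN cells (3168) was 179 when tested against a log2 fold change of 1 and ran from 2076 (without JUN EtOH replicate 2) to 3858 (without vector Dox replicate 1) with 1 library left out. The count in vector cells (4443) was 383 in that test and 3357 to 4858 with 1 library left out. The count for the difference (165) was 358 with DESeq2, 17 against a log2 fold change of 1, and at the extremes of leaving 1 library out it was 97 (vector EtOH replicate 3 omitted) and 249 (vector Dox replicate 1 omitted). It was 104 when JUN EtOH replicate 2 was omitted and 105 for replicate 1. In JUN cells the median of all genes moved to at most -0.023 under other scalings. Upper-quartile factors gave 1465 higher and 1640 lower genes. The labels do not say that a replicate number marks a shared culture or day, and the study's methods name no pairing. The numbers were therefore not used to pair the libraries. Not every same-numbered pair deviated together with r over 0.1. In JUN cells r was 0.28, 0.012 and 0.47 for replicates 1 to 3, of which the first and the last exceeded all differently numbered pairs (-0.47 to 0.248), and in vector cells it was -0.23, -0.26 and 0.11. With the replicate number as a block 3256, 4588 and 197 genes were called, and the JUN cell calls shared 3044 genes with the 3168. The block gave 9 instead of 5 cytokines and chemokines called higher. The value of JUN (-0.035) was 0.031, 0.018 and 0.023 without JUN EtOH replicate 1, JUN EtOH replicate 2 and JUN Dox replicate 3, and -0.15 without JUN EtOH replicate 3. Of the 151 named genes followed through the alternatives, 23 lost their call in JUN cells under some alternative other than the test against 1, as did 12 of 37 for the difference. The causes were not tested. Other named genes, such as TP63, KRT14, KRT17, CDH1 and FKBP5, were not followed in this way. Depth limits genes such as ANKRD1 and KRTAP2-3, with at most 3 counts per JUN EtOH library.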
